A study of Sus scrofa with 12 samples.

Results

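The claudins, cadherins and desmosome genes of the pig endometrium were examined as one family of cell junction genes. Members were taken by name, namely the genes CLDN, CDH, DSC, DSG, PKP and TJP followed by a digit, together with OCLN, DSP and JUP. This gave 61 genes of 20674 in the deposited table. Of these, 22 are claudins, 4 are other tight junction genes, 5 are classical type I cadherins, 13 are type II cadherins, 4 are other cadherins, 7 are desmosomal cadherins and 6 belong to the desmosomal plaque.

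RNA sequencing was carried out on endometrium of 12 Landrace × Yorkshire sows of parity 2 or 3, with 3 sows in each of 4 groups. All sows were pregnant and received their diet for 114 days of gestation. The L − N group received a low-fiber (LF) diet with 3.73% crude fiber and 0% N-carbamylglutamate (NCG), an activator of the body's own arginine synthesis, and L + N the same LF diet with 0.05% NCG. The H − N group received a high-fiber (HF) diet with 7.46% crude fiber and 0% NCG, and H + N the same HF diet with 0.05% NCG. Whole endometrium holds epithelium, stroma, vessels and immune cells, and in such bulk samples fewer cells of a type and less RNA per cell cannot be told apart.

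Epithelial cells are held together by 3 kinds of junction. In tight junctions, claudins and occludin seal the space between neighbouring cells and are tied to actin by the zonula occludens proteins. In adherens junctions, classical cadherins bind their like on the next cell and reach actin through catenins, whereas in desmosomes the desmogleins and desmocollins reach keratin filaments through plakoglobin, plakophilins and desmoplakin. In pigs, the uterine epithelium stays intact throughout pregnancy and forms the maternal side of a noninvasive placenta.

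Libraries held 14369781 to 19309724 counts. The summed level of 10 luminal and glandular epithelial markers was 811 to 1284 CPM (counts scaled to the library total) in L − N, 1287 to 1382 CPM in L + N, 1301 to 2104 CPM in H − N and 1056 to 1147 CPM in H + N. For 6 endothelial markers, the sum was 1001 to 1488 CPM in L − N, 754 to 910 CPM in L + N, 1006 to 1074 CPM in H − N and 925 to 1120 CPM in H + N. The trophoblast markers CDX2, CYP19A1 and PAG2 and the squamous marker KRT1 stayed under 0.1 CPM in every library. The L − N sows differed among themselves. Summed macrophage markers were at 2415 and 2471 CPM in replicates 2 and 3, above the 450 to 1098 CPM of the other groups, and at 867 CPM in replicate 1. Summed smooth muscle markers were at 5715 CPM in replicate 1 against 1786 and 2240 CPM in the other 2 sows. In H − N, replicate 3 had 145 CPM of summed neutrophil markers against 10.7 and 4.44 CPM in replicates 1 and 2.

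**Figure D1:**
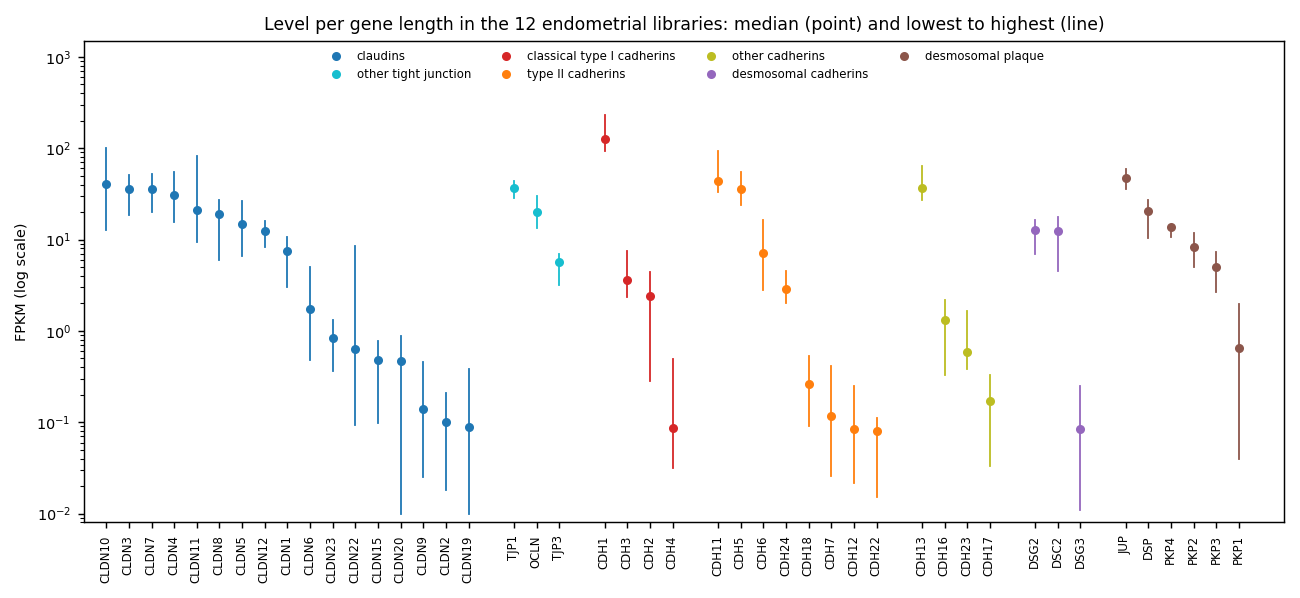
Level per gene length (FPKM, log axis) of members with a median of at least 0.05 FPKM. Points are medians over the 12 libraries and lines run from the lowest to the highest library (values below 0.01 are drawn at 0.01), with CDH1 highest at a median of 127 FPKM and CLDN10 the first of the claudins at 40.8 FPKM.

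Per gene length, CDH1 (E-cadherin, the adherens junction cadherin of epithelium) was the most abundant member. Its level was 92.2 to 230.0 FPKM, with a median of 127 FPKM over the 12 libraries. JUP (plakoglobin, shared by adherens junctions and desmosomes) followed with a median of 47.0 FPKM, and CDH11, a cadherin of mesenchymal cells, with 43.7 FPKM. The ranges of these 2 genes overlapped widely, from 35.9 to 58.7 FPKM for JUP and from 33.5 to 93.0 FPKM for CDH11.

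The most abundant claudins per gene length were CLDN10 at a median of 40.8 FPKM, CLDN3 at 35.9 FPKM, CLDN7 at 35.4 FPKM and CLDN4 at 31.1 FPKM. No order among them can be read from these medians, because each range contained the medians of the other 3. The range was widest for CLDN10, from 12.8 to 101 FPKM. The highest claudin of a library was CLDN10 in 6 libraries, CLDN11 in 4 and CLDN4 in 2. In L − N and in L + N, each of the 3 sows had a different one. CLDN3 and CLDN4 lie 19.6 kb apart on chromosome 3 of Sscrofa11.1.

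Among the 17 members that lie on chromosome 6 are all 7 desmosomal cadherins, which occupy 537 kb between positions 114916759 and 115453763. Within this stretch, DSG2 and DSC2, the desmosomal cadherins of simple epithelia, had medians of 12.6 and 12.4 FPKM. DSG3 had a median of 0.0844 FPKM, DSG1 of 0.0264 FPKM and DSG4 of 0.0241 FPKM, while DSC1 and DSC3 had a median of 0 FPKM. These 5 genes are best known from stratified epithelium such as skin.

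A total of 44 members had enough counts to be tested, and the other 17 reached at most 0.674 CPM. CLDN18 and CLDN25 had no count in any library. The untested members are CLDN2, CLDN14, CLDN16, CLDN17, CLDN18, CLDN19, CLDN20 and CLDN25, CDH8, CDH9, CDH10, CDH15 and CDH22, and DSC1, DSC3, DSG1 and DSG4. Another 7 members (CDH4, CDH7, CDH12, CDH19, CDH20, CLDN22 and DSG3) passed the filter through 4 to 6 of the 12 libraries, so that their differences rest on few counts. For CDH7, CLDN22 and DSG3, none of these libraries was from L − N, and for CLDN22 none was from H + N. For CDH12 none was from L + N or H + N, for CDH19 none from H − N and for CDH20 none from L + N. CDH17, which passed through more libraries, also had none from L − N. Lower levels of these genes in those groups are therefore partly set by the filter.

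**Figure D2:**
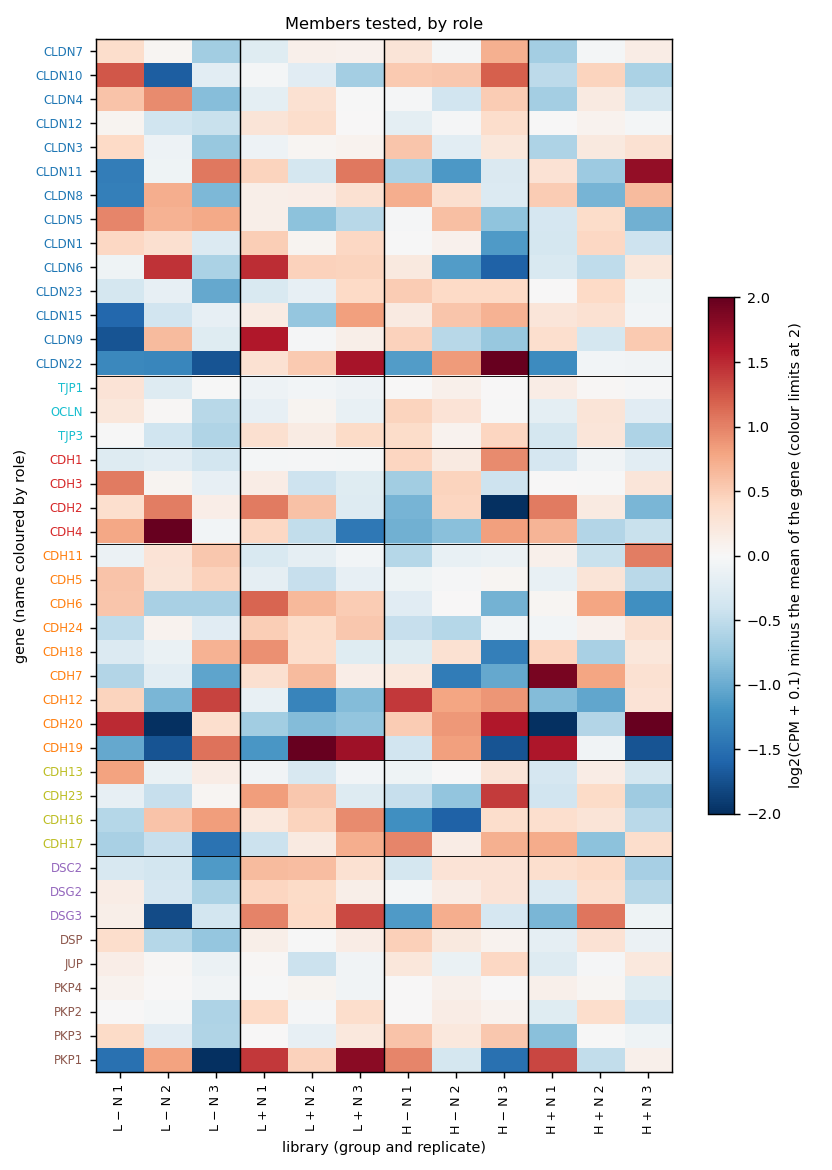
log2(CPM + 0.1) of 43 of the 44 members tested, with the mean of each gene over the 12 libraries subtracted, by role (rows) and library (columns). Abundant members such as JUP, PKP4 and TJP1 vary little, and strong colours are seen in members of low count such as CDH19, CDH20 and PKP1.

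Differences were tested with edgeR's quasi-likelihood test over all 15351 genes with sufficient counts, and the adjusted p is that of Benjamini and Hochberg. A gene was taken as differentially expressed at an adjusted p under 0.05 and a log2 fold change above 1 in size. DSC2 in L + N against L − N was the one member that met both limits, 1 of 44 members beside 3.99% of all genes tested, while 0 members did so in H + N (3.58% of all genes) and H − N (2.91%) against L − N, for NCG (1.8%) and for HF (0.0261%). At an adjusted p under 0.05 alone, DSC2 rose and CDH5 fell in L + N against L − N, 2 of 44 members beside 9.6% of all genes (5.97% higher and 3.63% lower). CDH1 rose in H − N against L − N, 1 of 44 members beside 5.27% of all genes (1.56% higher). CDH24 rose with NCG over both diets, 1 of 44 members beside 7.27% of all genes. In H + N against L − N, 0 of 44 members passed by edgeR, beside 7.97% of all genes, with 4 at an unadjusted p under 0.05 (27.5% of all genes) and 2 called by DESeq2. L − N is the control of all 3 comparisons, so they are not independent of each other.

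**Figure D3:**
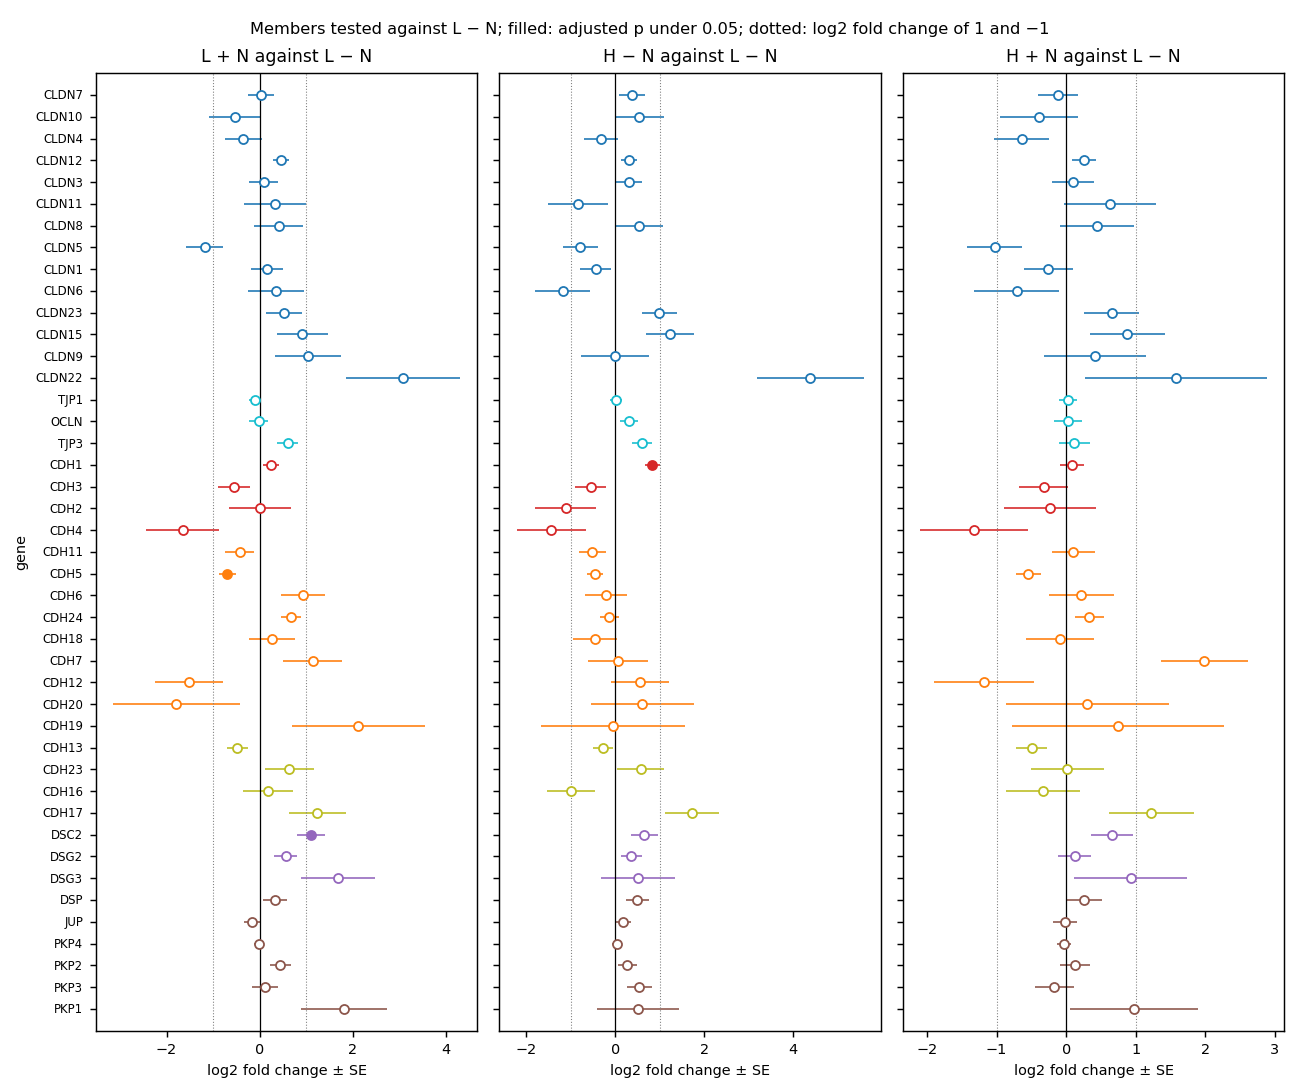
log2 fold change ± SE of 43 of the 44 members tested against L − N, for L + N, H − N and H + N, coloured by role and with filled points at an adjusted p under 0.05 by edgeR's quasi-likelihood test. Filled points are DSC2 and CDH5 in L + N and CDH1 in H − N, and the longest bars belong to members of low count.

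Among the adherens junction cadherins, CDH1 lies on the minus strand of chromosome 6 at 18075487 to 18155986. CDH1 was at 451, 468 and 418 CPM in L − N, at 526, 532 and 527 CPM in L + N, at 726, 612 and 1038 CPM in H − N and at 429, 515 and 469 CPM in H + N. The H − N libraries were above each of the other 9. Mean levels were 446 ± 25.3 CPM (SD, n = 3) in L − N and 792 ± 220 CPM (SD, n = 3) in H − N. By edgeR, CDH1 had a log2 fold change of 0.83 ± 0.17 (SE) in H − N against L − N, with an adjusted p of 0.0279. H − N libraries lay above the other 9 for this 1 of 44 members, against 1.01% of all genes tested. In the NCG groups, the log2 fold change of CDH1 against L − N was 0.25 in L + N and 0.08 in H + N, and neither passed the test. The call in H − N was lost by edgeR without L − N replicate 2 (adjusted p = 0.0688), L − N replicate 3 (0.116), H − N replicate 1 (0.07) and H − N replicate 3 (0.0527), and with the 2 groups fitted alone (0.124).

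The summed epithelial markers were also higher in H − N than in L − N, at 1301 to 2104 CPM against 811 to 1284 CPM. Per 100 CPM of the summed epithelial markers, CDH1 was at 35.1, 37.0 and 51.5 in L − N and at 45.4, 47.1 and 49.3 in H − N. On this scale, the 2 groups overlapped. The ratio was chosen after the data were seen, and the part of the markers in the difference was not tested.

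Other type I cadherins did not pass in any comparison. CDH2 was at 12.2, 19.8 and 10.7 CPM in L − N, at 19.99, 14.6 and 8.11 CPM in L + N, at 5.08, 13.2 and 1.45 CPM in H − N and at 20.1, 11.03 and 5.09 CPM in H + N. This gene encodes N-cadherin of neural and mesenchymal cells, and its libraries spread widely within each group. CDH3 was at 26.5, 13.4 and 11.5 CPM in L − N, at 14.4, 9.66 and 10.9 CPM in L + N, at 7.93, 17.5 and 9.66 CPM in H − N and at 13.0, 12.8 and 15.3 CPM in H + N. It encodes P-cadherin, lies 35.0 kb from CDH1, and its groups overlapped. CDH4 was at 1.27, 3.32 and 0.672 CPM in L − N, at 0.971, 0.466 and 0.196 CPM in L + N, at 0.311, 0.347 and 1.31 CPM in H − N and at 1.19, 0.435 and 0.490 CPM in H + N. CDH4 encodes R-cadherin. For CDH4, edgeR gave a log2 fold change of −1.33 ± 0.77 (SE) in H + N against L − N (adjusted p = 0.293). It was the lowest member in that comparison, from levels of at most 3.32 CPM.

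**Figure D4:**
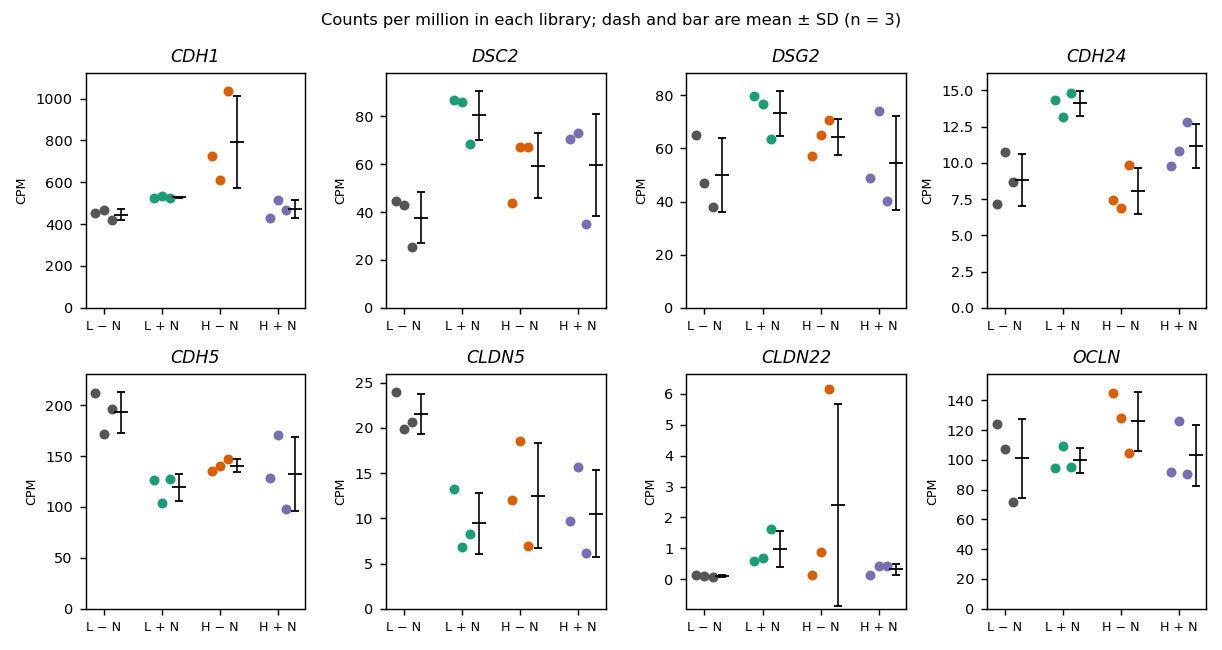
CPM of 8 members in each of the 12 libraries (points, 3 per group), with the mean ± SD (n = 3) beside them. CDH1 is highest in H − N, DSC2 in L + N lies above L − N without overlap, CDH5 and CLDN5 are highest in L − N, and the highest CLDN22 value is a single library of H − N.

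The desmosomal cadherin DSC2 (desmocollin 2) lies on the minus strand of chromosome 6 at 114982259 to 115021332. DSC2 was at 44.7, 43.0 and 25.3 CPM in L − N, at 86.8, 85.9 and 68.4 CPM in L + N, at 43.7, 67.3 and 67.2 CPM in H − N and at 70.4, 73.2 and 35.0 CPM in H + N. All L + N libraries were above all L − N libraries, whereas the groups on the HF diet reached into the range of L − N. Mean levels were 37.7 ± 10.8 CPM in L − N and 80.4 ± 10.4 CPM in L + N (SD, n = 3). By edgeR, the change of DSC2 in L + N against L − N was 1.09 ± 0.30 (SE) on the log2 scale (adjusted p = 0.0427). Against the epithelial markers, DSC2 was at 3.11 to 3.48 per 100 CPM in L − N and at 5.11 to 6.74 in L + N, again without overlap. On this scale it was at 2.73 to 5.17 in H − N and at 3.32 to 6.42 in H + N, which both reached into the range of L − N. The ratio was chosen after the data were seen, and the part of the markers in the difference was not tested. By edgeR, the adjusted p was 0.0722 and 0.151 on leaving out L − N replicates 2 and 3, 0.107, 0.128 and 0.071 for L + N replicates 1, 2 and 3, 0.0557 for H − N replicate 2 and 0.0523 for H + N replicate 1.

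DSG2 was at 65.2, 46.8 and 37.8 CPM in L − N, at 79.6, 76.7 and 63.7 CPM in L + N, at 57.2, 65.1 and 70.8 CPM in H − N and at 48.8, 74.3 and 40.2 CPM in H + N. DSG2 (desmoglein 2), the partner of DSC2 in desmosomes of simple epithelium, overlapped between L + N and L − N. By edgeR, DSG2 had a log2 fold change of 0.55 ± 0.24 (SE) in L + N against L − N, with an adjusted p of 0.157. The remaining desmosomal cadherin tested, DSG3, stayed between 0.0627 and 1.31 CPM. Against L − N, all 3 desmosomal cadherins tested had positive log2 fold changes in L + N, H − N and H + N, beside 47.7%, 53.5% and 51.7% of all genes. The 3 comparisons share this control, in which DSG3 had at most 8 counts per library. DSG3 passed the filter only through libraries outside L − N, so its positive sign is partly set by the filter. The median of the 3 genes was 1.09 for L + N and 0.66 for H + N (both the value of DSC2), and 0.51 for H − N (that of DSG3). Medians over all genes were −0.02 for L + N, 0.02 for H + N and 0.03 for H − N.

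In the desmosomal plaque, DSP (desmoplakin) binds the keratin filaments. DSP was at 232, 122 and 106 CPM in L − N, at 197, 181 and 202 CPM in L + N, at 252, 208 and 191 CPM in H − N and at 159.8, 222 and 167 CPM in H + N. Replicate 1 of L − N was above the other two by far. With all libraries, the log2 fold change of DSP was 0.25 in H + N, 0.33 in L + N and 0.50 in H − N against L − N, none past the test. Without L − N replicate 1, all 3 passed edgeR's test, with log2 fold changes of 0.68, 0.76 and 0.93. JUP was at 164, 152 and 138 CPM in L − N, at 152, 112 and 143 CPM in L + N, at 176, 137 and 199.5 CPM in H − N and at 126, 148 and 174 CPM in H + N. For plakoglobin, all groups overlapped. PKP2 was at 40.5, 39.1 and 26.2 CPM in L − N, at 53.1, 39.5 and 51.3 CPM in L + N, at 40.6, 44.6 and 42.3 CPM in H − N and at 34.1, 51.4 and 30.4 CPM in H + N. PKP2 (plakophilin 2) in H − N was above L − N, where the closest libraries were at 40.6 and 40.5 CPM, and it did not pass the test. PKP4 was at 90.2, 85.7 and 81.4 CPM in L − N, at 85.5, 88.7 and 81.1 CPM in L + N, at 86.2, 91.3 and 85.7 CPM in H − N and at 91.2, 88.0 and 72.6 CPM in H + N. For this plakophilin relative all groups overlapped as well, and its log2 fold changes against L − N were between −0.03 and 0.03. Of the remaining plaque genes, PKP3 was at 7.91 to 21.0 CPM and PKP1 at 0.201 to 9.03 CPM, and neither passed in any comparison.

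Among type II cadherins, CDH5 (VE-cadherin, the adherens junction cadherin of endothelium) lies on the plus strand of chromosome 6 at 27108560 to 27142145. CDH5 was at 212, 171 and 196 CPM in L − N, at 127, 104 and 127 CPM in L + N, at 135, 140.1 and 147 CPM in H − N and at 129, 171 and 97.9 CPM in H + N. The L − N libraries were above the other 9, with replicate 2 of L − N and replicate 2 of H + N rounding to the same level. For CDH5, edgeR gave a log2 fold change of −0.69 ± 0.18 (SE) in L + N against L − N (adjusted p = 0.0349). It was 1 of 44 members that fell at an adjusted p under 0.05 in L + N, against 3.63% of all genes tested. By edgeR, the log2 fold change was −0.46 in H − N (adjusted p = 0.146) and −0.54 in H + N (adjusted p = 0.0782). The call in L + N was lost by edgeR on leaving out L − N replicate 1 (adjusted p = 0.0618) or 3 (0.109), L + N replicate 1 (0.0824), 2 (0.141) or 3 (0.0826), H − N replicate 2 (0.0504) or H + N replicate 1 (0.0527).

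CLDN5, the claudin of endothelium, is encoded on the minus strand of chromosome 14 at 51161490 to 51162382. CLDN5 was at 24.0, 19.8 and 20.7 CPM in L − N, at 13.2, 6.87 and 8.24 CPM in L + N, at 11.97, 18.5 and 6.97 CPM in H − N and at 9.69, 15.7 and 6.19 CPM in H + N. As with CDH5, the L − N libraries were above all others. By edgeR, the change of CLDN5 in L + N against L − N was −1.18 ± 0.40 (SE) on the log2 scale (adjusted p = 0.0827). CDH5 and CLDN5 were 2 of 44 members with L − N above the other 9 libraries, against 5.28% of all genes tested. Per 100 CPM of the summed endothelial markers, CDH5 was at 14.2 to 17.1 in L − N. It overlapped with L + N (13.8 to 14.6) and H + N (10.1 to 15.2), but not with H − N (13.0 to 13.7). On that scale, CLDN5 was at 1.61 to 1.98 in L − N. It overlapped with H − N (0.650 to 1.72), but not with L + N (0.911 to 1.45) or H + N (0.640 to 1.40). The part of the endothelial markers in either difference was not tested.

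CDH24, a type II cadherin that binds catenins, lies on the plus strand of chromosome 7 at 75990185 to 76001133. CDH24 was at 7.13, 10.7 and 8.66 CPM in L − N, at 14.4, 13.2 and 14.8 CPM in L + N, at 7.41, 6.87 and 9.86 CPM in H − N and at 9.82, 10.8 and 12.8 CPM in H + N. The L + N libraries were above the other 9, for this 1 of 44 members and for 1.42% of all genes. By edgeR, CDH24 had a log2 fold change of 0.57 ± 0.15 (SE) with NCG over both diets, with an adjusted p of 0.0408. Libraries with and without NCG overlapped, since H + N reached into the range of L − N. CDH24 was 1 of 44 members higher with NCG at an adjusted p under 0.05, against 5.67% of all genes tested. The call was lost by edgeR when any of 10 libraries was left out, with adjusted p-values of 0.051 to 0.0967, and also with no filter on low counts (0.0506), and kept on leaving out replicate 2 of L − N or replicate 3 of H − N.

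CDH11 was at 284, 372 and 445 CPM in L − N, at 249.5, 272 and 298 CPM in L + N, at 208, 279 and 284 CPM in H − N and at 330.2, 226 and 626 CPM in H + N. Replicate 3 of H + N was far above the other sows for this mesenchymal cadherin, and H − N lay just below L − N, the closest libraries rounding to the same level. By edgeR, the log2 fold change of CDH11 was 0.10 in H + N against L − N (adjusted p = 0.866). CDH7 was at 0.318, 0.439 and 0.201 CPM in L − N, at 0.679, 0.873 and 0.589 CPM in L + N, at 0.622, 0.139 and 0.207 CPM in H − N and at 2.24, 0.978 and 0.674 CPM in H + N. CDH7 in H + N was above both groups without NCG. For CDH7, edgeR gave a log2 fold change of 1.98 ± 0.63 (SE) in H + N against L − N (adjusted p = 0.0706). It had the highest log2 fold change of the members in that comparison, from levels of at most 2.24 CPM. CDH12 was at 0.637, 0.188 and 1.28 CPM in L − N, at 0.388, 0.116 and 0.196 CPM in L + N, at 1.35, 0.832 and 0.897 CPM in H − N and at 0.198, 0.163 and 0.552 CPM in H + N. CDH12 was among the lowest there. By edgeR, the change of CDH12 in H + N against L − N was −1.18 ± 0.72 (SE) on the log2 scale (adjusted p = 0.310). Of the other type II cadherins, CDH6 was at 14.8 to 78.0 CPM, CDH18 at 1.17 to 6.07 CPM, CDH19 at 0 to 1.92 CPM and CDH20 at 0 to 1.59 CPM, with no call.

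Other cadherins showed no call. CDH13 was at 137, 71.3 and 86.2 CPM in L − N, at 74.1, 62.2 and 74.8 CPM in L + N, at 73.3, 78.7 and 93.1 CPM in H − N and at 61.7, 86.2 and 61.0 CPM in H + N. This gene encodes T-cadherin, which has no cytoplasmic tail and is found on vessels and smooth muscle, and it was highest in L − N replicate 1, the library with the most smooth muscle markers, whose part was not tested. CDH16 was at 2.101, 4.77 and 5.71 CPM in L − N, at 3.69, 4.37 and 6.21 CPM in L + N, at 1.30, 0.971 and 4.07 CPM in H − N and at 4.02, 3.80 and 2.15 CPM in H + N. CDH16 is known as the kidney cadherin, and its groups overlapped. CDH17 was at 0.318, 0.376 and 0.134 CPM in L − N, at 0.388, 0.640 and 0.981 CPM in L + N, at 1.19, 0.624 and 0.966 CPM in H − N and at 0.989, 0.272 and 0.736 CPM in H + N. CDH17, the liver and intestine cadherin, had levels in L − N below those of L + N and H − N without overlap. It passed the filter only through libraries outside L − N, so its lower level there is partly set by the filter. By edgeR, CDH17 had a log2 fold change of 1.22 ± 0.61 (SE) in H + N against L − N, with an adjusted p of 0.221. CDH23, known from the hair cells of the inner ear, was at 9.15 to 42.3 CPM, and it overlaps 4 genes on the opposite strand. As the strand setting of the counting is not stated, its reads and theirs may not be separable.

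Among the tight junction genes, OCLN (occludin) and the zonula occludens genes TJP1 and TJP3 did not pass in any comparison. OCLN was at 124, 107 and 71.9 CPM in L − N, at 94.3, 109 and 95.4 CPM in L + N, at 145, 128 and 105 CPM in H − N and at 91.8, 126 and 90.7 CPM in H + N. The 4 groups overlapped. TJP1 was at 347, 241 and 286 CPM in L − N, at 269, 278 and 267 CPM in L + N, at 288, 309 and 289 CPM in H − N and at 319, 291 and 282 CPM in H + N. TJP1 shares 3909 bp with SEH1L on the same strand, so that part of its reads is uncertain. TJP3 was at 26.2, 19.8 and 17.3 CPM in L − N, at 32.7, 29.5 and 34.1 CPM in L + N, at 33.9, 27.5 and 35.5 CPM in H − N and at 20.6, 31.1 and 17.1 CPM in H + N. TJP3, which overlaps APBA3 on the opposite strand, was above L − N in L + N and in H − N without overlap. Its log2 fold change was 0.60 and 0.61 there, with adjusted p-values by edgeR of 0.109 and 0.126.

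Of 14 claudins tested, 0 passed in any of the 8 comparisons by edgeR at an adjusted p under 0.05. At an unadjusted p under 0.05, 1 was found in H + N (27.5% of all genes), 3 in L + N (27.8%) and 3 in H − N (24.4%) against L − N, and DESeq2 called CLDN5 and CLDN22 in L + N (14.6% of all genes) and CLDN22 in H − N (11.2%). With NCG over both diets, DESeq2 called 5 members, among them CDH5, CDH7, CDH12 and CDH24, beside 11% of all genes. The median log2 fold change of the claudins was 0.18 in H + N, 0.34 in L + N and 0.31 in H − N, beside 0.02, −0.02 and 0.03 for all genes.

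The barrier claudins of epithelium were present in all sows. CLDN1 was at 11.7, 10.97 and 7.19 CPM in L − N, at 12.3, 9.08 and 11.6 CPM in L + N, at 8.70, 9.29 and 3.93 CPM in H − N and at 6.79, 11.7 and 6.499 CPM in H + N. CLDN3 was at 34.6, 24.6 and 15.6 CPM in L − N, at 24.4, 27.1 and 27.6 CPM in L + N, at 38.8, 22.6 and 30.8 CPM in H − N and at 17.2, 30.3 and 32.6 CPM in H + N. CLDN4 was at 83.7, 108 and 31.0 CPM in L − N, at 49.1, 69.5 and 56.0 CPM in L + N, at 55.6, 43.0 and 79.9 CPM in H − N and at 35.1, 63.7 and 44.2 CPM in H + N. In each of these 3 genes the groups H + N and L − N overlapped. CLDN7 was at 73.3, 59.3 and 35.4 CPM in L − N, at 48.6, 61.6 and 60.9 CPM in L + N, at 68.9, 55.5 and 93.6 CPM in H − N and at 35.9, 55.7 and 63.6 CPM in H + N. CLDN7 overlapped likewise. CLDN10 was at 151, 20.2 and 54.7 CPM in L − N, at 61.5, 54.3 and 39.8 CPM in L + N, at 91.3, 92.4 and 145 CPM in H − N and at 44.3, 86.8 and 41.0 CPM in H + N. CLDN10 forms ion-selective pores, and L − N alone covered the whole range of the 12 libraries. Its log2 fold change in H − N was 0.54 with all libraries and 1.55 without L − N replicate 1, where it passed edgeR's test. CLDN11 was at 6.75, 16.7 and 37.1 CPM in L − N, at 24.4, 13.9 and 37.3 CPM in L + N, at 11.5, 7.98 and 14.6 CPM in H − N and at 21.8, 10.8 and 60.8 CPM in H + N. CLDN11, best known from myelin and testis, reached its highest level in H + N replicate 3.

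CLDN22 (chromosome 15, minus strand, 44804228 to 44804908) had the widest difference of the claudins, from few reads. CLDN22 was at 0.127, 0.125 and 0.0672 CPM in L − N, at 0.582, 0.699 and 1.63 CPM in L + N, at 0.155, 0.902 and 6.14 CPM in H − N and at 0.132, 0.435 and 0.429 CPM in H + N. The L − N libraries were below the other 9 for this 1 of 44 members, against 4.28% of all genes, and held at most 2 counts each. The margin was small, with 0.127 CPM in L − N replicate 1 and 0.132 CPM in H + N replicate 1. Against a floor of 3 counts per library (0.193 CPM in L − N), the mean level was at least 1.72-fold higher in H + N, at least 5.02-fold higher in L + N, and in H − N at least 12.4-fold higher. Replicate 1 of H + N and replicate 1 of H − N lay under that floor themselves, so these separations rest on few reads. For CLDN22, edgeR gave a log2 fold change of 4.38 ± 1.20 (SE) in H − N against L − N (adjusted p = 0.0586). Without H − N replicate 3, the log2 fold change in H − N was 2.18 and the level at least 2.73-fold higher, and without L + N replicate 3 the level in L + N was at least 3.31-fold higher. In L + N against L − N, the log2 fold change was 3.08 with all libraries (adjusted p by edgeR of 0.129) and 3.08 without H − N replicate 3, where it passed edgeR's test, as it also did with the 2 groups fitted alone. The remaining claudins tested were CLDN12 at 31.4 to 54.7 CPM, CLDN8 at 4.65 to 20.3 CPM, CLDN6 at 0.897 to 8.4 CPM, CLDN9 at 0.127 to 2.18 CPM, CLDN15 at 0.191 to 1.44 CPM and CLDN23 at 0.403 to 1.35 CPM.

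In the main contrast of the study, H + N against L − N, 0 of 44 members passed by edgeR at an adjusted p under 0.05, beside 7.97% of all genes, and 4 at an unadjusted p under 0.05, beside 27.5% of all genes. DESeq2 called CDH5 and CDH7 there, beside 14.4% of all genes. The median log2 fold change was 0.09 for the members and 0.02 for all genes. The libraries did not overlap for 4 members higher in H + N (CDH7, CLDN15, CLDN22 and CLDN23, background 15.2%) and for 2 lower (CDH5 and CLDN5, background 12.7%). In L + N against L − N, 8 members were higher without overlap (CDH1, CDH7, CDH17, CDH24, CLDN22, DSC2, DSG3 and TJP3, background 18%) and 3 lower (among them CDH5 and CLDN5, 17.2%). In H − N against L − N, 7 were higher (CDH1, CDH17, CLDN15, CLDN22, CLDN23, PKP2 and TJP3, 12.8%) and 3 lower (CDH5, CDH11 and CLDN5, 12.7%). Among the members higher than L − N, CDH7, CDH17, CLDN22 and DSG3 passed the filter only through libraries outside L − N.

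NCG on the HF diet (H + N against H − N) gave 0 calls by edgeR, as for 0% of all genes, with 8 members at an unadjusted p under 0.05 (8.67% of all genes) and CDH1 called by DESeq2, beside 0.245% of all genes. The libraries of H + N were below H − N for 5 members (among them CDH1, CDH12, CLDN10 and PKP3, background 5.13%) and above for 1 (CDH7, 7.82%). Fiber with NCG (H + N against L + N) gave 0 calls by edgeR and by DESeq2, beside 0% and 0.0109% of all genes, and 0 members at an unadjusted p under 0.05 (4.68% of all genes). There, 4 members were lower without overlap (CDH1, CDH24, CLDN6 and CLDN22, background 5.09%) and 1 higher (TJP1, 5.86%). HF against LF over both NCG levels gave 0 calls by edgeR and by DESeq2, beside 0.0521% and 6.03% of all genes, and 2 members at an unadjusted p under 0.05, CDH1 and CLDN6, beside 19.5% of all genes. The interaction of fiber and NCG gave 0 calls by edgeR, beside 0% of all genes, and 7 at an unadjusted p under 0.05 (12.8% of all genes), while DESeq2 called CDH1 and CLDN22, beside 1.56% of all genes.

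The proteins that work with the members were followed in a list of 60 partner genes found in the table, of which 58 were tested. By edgeR at an adjusted p under 0.05, 4 partners fell in H + N, 3 rose and 4 fell in L + N, and 3 rose and 4 fell in H − N, each against L − N. These counts of 58 stand beside 7.97%, 9.6% and 5.27% of all genes. With NCG over both diets, 3 partners rose and 1 fell, beside 7.27% of all genes. The median log2 fold change of the partners was 0.01 in H + N, 0.06 in L + N and 0.17 in H − N. Of the 22 partner calls over all comparisons, 20 ended when some single library was left out, 19 of them without L − N replicate 3.

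**Figure D5:**
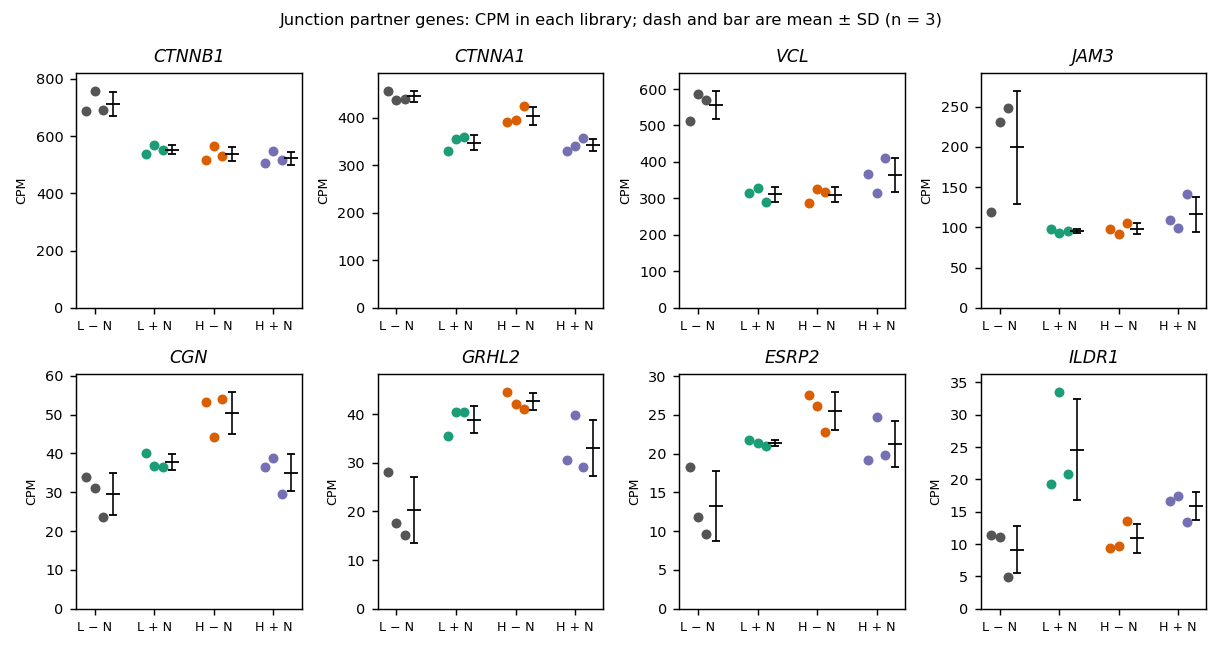
CPM of 8 junction partner genes in each of the 12 libraries (points, 3 per group), with the mean ± SD (n = 3) beside them. CTNNB1, CTNNA1 and VCL are highest in L − N, GRHL2 and ESRP2 are lowest there, and ILDR1 is highest in L + N.

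Among the partners that link cadherins to actin, CTNNB1, CTNNA1 and VCL fell in L + N and in H + N against L − N, and CTNNB1 and VCL also in H − N. CTNNB1 was at 688, 759 and 690.5 CPM in L − N, at 539, 568 and 551 CPM in L + N, at 516, 564.1 and 530.4 CPM in H − N and at 505, 547 and 516 CPM in H + N. CTNNB1 (β-catenin) binds the tail of classical cadherins, and the L − N libraries were above the other 9. By edgeR, the change of CTNNB1 in H + N against L − N was −0.45 ± 0.10 (SE) on the log2 scale (adjusted p = 0.0281). CTNNA1 was at 458, 438 and 441 CPM in L − N, at 329, 355 and 360.2 CPM in L + N, at 391, 396 and 425 CPM in H − N and at 331, 341 and 358 CPM in H + N. The same held for CTNNA1 (α-catenin). By edgeR, CTNNA1 had a log2 fold change of −0.38 ± 0.10 (SE) in H + N against L − N, with an adjusted p of 0.0388. VCL was at 512, 587 and 570.1 CPM in L − N, at 316, 328 and 289 CPM in L + N, at 287, 326 and 318 CPM in H − N and at 367, 315 and 409.9 CPM in H + N. VCL (vinculin) reinforces this link, and L − N was again above the rest, so that this held for 3 of 58 partners, against 5.28% of all genes. For VCL, edgeR gave a log2 fold change of −0.84 ± 0.12 (SE) in L + N against L − N (adjusted p = 0.00818). VCL in L + N was called in each of 17 alternative analyses. Smooth muscle markers summed to 1786 to 5715 CPM in L − N and to 979 to 1801 CPM in the other groups, and their part in these differences was not tested.

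CTNNA3 was at 5.22, 2.82 and 4.10 CPM in L − N, at 7.18, 13.4 and 5.69 CPM in L + N, at 0.881, 2.70 and 2.83 CPM in H − N and at 12.6, 9.02 and 8.64 CPM in H + N. CTNNA3, a catenin of heart and testis, rose with NCG. By edgeR, the change of CTNNA3 with NCG over both diets was 1.68 ± 0.32 (SE) on the log2 scale (adjusted p = 0.0126). JAM3 was at 119, 231 and 249 CPM in L − N, at 97.5, 93.3 and 95.1 CPM in L + N, at 98.2, 91.3 and 105 CPM in H − N and at 109, 99.4 and 141 CPM in H + N. JAM3, a junctional adhesion molecule of vessels and other cells, was spread over L − N with replicate 1 close to the other groups. By edgeR, JAM3 had a log2 fold change of −1.07 ± 0.23 (SE) in L + N against L − N, with an adjusted p of 0.0193. ILDR1 was at 11.4, 11.2 and 4.90 CPM in L − N, at 19.3, 33.6 and 20.9 CPM in L + N, at 9.43, 9.71 and 13.5 CPM in H − N and at 16.7, 17.5 and 13.4 CPM in H + N. ILDR1, a protein of tricellular tight junctions, was highest in L + N. For ILDR1, edgeR gave a log2 fold change of 1.42 ± 0.32 (SE) in L + N against L − N (adjusted p = 0.0221). PRKCI was at 56.7, 61.1 and 63.1 CPM in L − N, at 79.1, 88.6 and 85.8 CPM in L + N, at 65.5, 80.5 and 69.5 CPM in H − N and at 79.96, 77.5 and 74.2 CPM in H + N. PRKCI is the atypical protein kinase C of the polarity complex. By edgeR, the change of PRKCI in L + N against L − N was 0.49 ± 0.10 (SE) on the log2 scale (adjusted p = 0.0183). CGN was at 33.9, 31.1 and 23.6 CPM in L − N, at 40.2, 36.8 and 36.5 CPM in L + N, at 53.2, 44.2 and 54.0 CPM in H − N and at 36.6, 38.9 and 29.6 CPM in H + N. CGN (cingulin) joins the zonula occludens proteins, and H − N was above the other 9 libraries, as for 2 of 58 partners (CGN and GRHL2) and 1.01% of all genes. By edgeR, CGN had a log2 fold change of 0.77 ± 0.16 (SE) in H − N against L − N, with an adjusted p of 0.0273.

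Among the regulators of junction genes, GRHL2 and ESRP2 rose and GRHL1 fell in H − N against L − N. GRHL2 was at 28.1, 17.6 and 15.2 CPM in L − N, at 35.6, 40.4 and 40.4 CPM in L + N, at 44.6, 42.1 and 41.0 CPM in H − N and at 30.5, 39.7 and 29.1 CPM in H + N. GRHL2 activates epithelial genes such as CDH1, and L − N was below the other 9 libraries, as for 3 of 58 partners and 4.28% of all genes. For GRHL2, edgeR gave a log2 fold change of 1.07 ± 0.21 (SE) in H − N against L − N (adjusted p = 0.0249). It is also 1 of the 10 epithelial markers, and per 100 CPM of the other 9 it was at 1.41 to 2.24 in L − N and at 1.99 to 3.34 in H − N, which overlapped. GRHL2 also rose in L + N against L − N, by 0.93 ± 0.21 (SE) on the log2 scale with an adjusted p of 0.0210 by edgeR. On the scale of the other markers it was at 2.84 to 3.11 in L + N, above L − N without overlap. The part of these markers in the differences of GRHL2 was not tested. ESRP2 was at 18.3, 11.9 and 9.60 CPM in L − N, at 21.7, 21.4 and 20.9 CPM in L + N, at 27.6, 26.1 and 22.8 CPM in H − N and at 19.2, 24.7 and 19.9 CPM in H + N. ESRP2, a splicing factor of epithelial cells, was also lowest in L − N. By edgeR, the change of ESRP2 in H − N against L − N was 0.94 ± 0.22 (SE) on the log2 scale (adjusted p = 0.0349). GRHL1 was at 2.80, 10.9 and 10.8 CPM in L − N, at 3.30, 3.67 and 4.64 CPM in L + N, at 1.66, 3.26 and 1.59 CPM in H − N and at 1.71, 2.34 and 3.004 CPM in H + N. GRHL1, known from the desmosomal genes of skin, was high in 2 of the 3 L − N sows, the same 2 that were high in JAM3 and in summed macrophage markers, whose part in these differences was not tested. By edgeR, GRHL1 had a log2 fold change of −1.92 ± 0.50 (SE) in H − N against L − N, with an adjusted p of 0.0494.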

How the data were processed

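The authors deposited, per the labels, one table with raw read counts and FPKM values per gene for 12 endometrial libraries. Poly(A) libraries were strand-specific, and the submitters' processing notes name fastp 0.22.0, HISAT2 2.1.0, HTSeq 0.9.1 and Sscrofa11.1, while the strand setting of the counting is not given in the sources used here. The deposited FPKM values differ from the counts scaled by gene length and library total by at most 1.91e-05 percent and were used only to compare levels between genes. The deposited counts were used for every test. Groups were read from the sample titles. Members and lists were chosen with earlier results of these data known.

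In R 4.3.3, filterByExpr on the 4 groups kept 15351 genes. After TMM scaling, edgeR 4.0.16 fitted a quasi-likelihood model to all libraries, each group with its own mean (8 residual degrees of freedom, biological coefficient of variation 0.269). CPM values use the TMM factors. P-values were adjusted by Benjamini-Hochberg over all genes tested, in 8 comparisons. Alternatives were DESeq2 1.42.0, RLE scaling, no filter on low counts, a replicate block, the compared groups only, and each library left out. In 3 simulated data sets for H + N against L − N with 200 of 15351 genes changed by 2 on the log2 scale, edgeR found 79.8% with 6.33 false calls on average, and DESeq2 86.8% with 27.0. Smaller changes, such as those of the called members, were not simulated, so these shares do not hold for them. Replicates of a group differed by a chi-square of 22.8 to 98.6 per gene, so no library was counted as a repeat of another. Nothing says how samples were processed in batches. Named members were those called in any comparison, a list by function, and the 3 highest and 3 lowest in H + N against L − N, and at most 12 partners by smallest adjusted p. The values of 1 member are not reported here.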

Additional observations from a re-analysis of the deposited data

Results flagged for a closer look

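For CDH1, CGN and GRHL2, L + N was above L − N and H + N was below H − N, both without overlap. Each library is from a different sow, and the 3 genes were flagged from these same values. Of all genes tested, 18% had L + N above L − N without overlap and 5.13% had H + N below H − N. The share of all genes with both was not counted. The interaction of fiber and NCG on the log2 scale was −0.995 for CDH1, with an unadjusted p of 0.00165 and an adjusted p of 0.254 by edgeR. It was −0.88 for CGN, with an unadjusted p of 0.002 and an adjusted p of 0.255 by edgeR, and −1.30 for GRHL2, with an unadjusted p of 0.000942 and an adjusted p of 0.254 by edgeR. None of these 3 passed the test of the difference after adjustment by edgeR, beside 0% of all genes. All 3 passed by DESeq2, beside 1.56% of all genes. The interaction by DESeq2 was −0.98 for CDH1 (adjusted p = 0.0171), −0.87 for CGN (adjusted p = 0.0306) and −1.28 for GRHL2 (adjusted p = 0.0124). The 10 epithelial markers, of which GRHL2 is 1, had a summed level of 811 to 1284 CPM in L − N and 1287 to 1382 CPM in L + N. It was 1301 to 2104 CPM in H − N and 1056 to 1147 CPM in H + N. For this sum too, L + N was above L − N and H + N below H − N, while H + N and L − N overlapped. The part of the markers in these differences was not tested.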

How the results depend on the processing

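None of the 26 calls of named genes changed direction in any alternative. Members differentially expressed by DESeq2 numbered 1 in H + N, 3 in L + N and 1 in H − N against L − N (0, 1 and 0 by edgeR), 2 for NCG and 1 for the interaction (0 and 0). With the compared groups only, 3 were differentially expressed in L + N. With one library left out, the range was 0 to 2 in L + N and 0 to 1 in H − N, for NCG and for the interaction. At an adjusted p under 0.05, DESeq2 called 2 members in H + N, 5 in L + N, 2 in H − N, 1 in H + N against H − N, 5 for NCG and 2 for the interaction. The compared groups only gave 4 in L + N and 0 in H − N, and no filter on low counts 0 for NCG. With one library left out, the range was 0 to 1 in H + N, 0 to 3 in L + N, 0 to 3 in H − N, 0 to 2 for NCG and 0 to 1 for the interaction.

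Partner genes at an adjusted p under 0.05 by DESeq2 numbered 12 in H + N, 1 in H + N against H − N, 4 for HF, 7 for NCG and 4 for the interaction. No filter on low counts gave 2 in H + N, and the compared groups only 0 in H + N, 3 in L + N and 0 in H − N. With one library left out, the range was 0 to 8 in H + N, 1 to 10 in L + N, 0 to 10 in H − N, 0 to 7 for HF, 1 to 6 for NCG and 0 to 5 for the interaction. Partner genes differentially expressed by DESeq2 numbered 4 in H + N, 5 in H − N, 1 in H + N against H − N, 1 for HF and 3 for the interaction, beside 0 in H + N with no filter, and 0 in H + N, 1 in L + N and 0 in H − N with the compared groups only. With one library left out, the range was 0 to 4 in H + N, L + N and H − N, 0 to 1 for HF, 1 to 2 for NCG and 0 to 4 for the interaction. The cause of these shifts was not tested.

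Replicate numbers gave no pairing of the sows. Of 18 same-numbered pairs of libraries, 3 had a correlation of their deviations over 0.1 (−0.32 to 0.28), and 3 of 12 libraries correlated best with their own number. With the number as a replicate block, 1 member in L + N, 0 in H − N and 0 for NCG were at an adjusted p under 0.05, 2 partners in H + N were at an adjusted p under 0.05, and 0 partners in H + N and 1 in H − N were differentially expressed. By edgeR, this block ended the calls of CDH5 in L + N (adjusted p = 0.0629), CDH1 in H − N (0.0513) and CDH24 for NCG (0.0553).

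With 3 sows per group, p-values set group differences against a spread between sows that was estimated from all 12 libraries. Depth limits members of few counts such as CLDN22 and CDH7. Without replicate 1 of L − N, DSP and CLDN10 passed as given above.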
